A study of Mus musculus with 9 samples.

Results

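The 52 translation initiation factor genes of the mouse were described here by the chromatin peaks at their ends in bone marrow stem and progenitor cells. They were taken from 21887 protein-coding genes of the mm10 RefSeq table as those whose symbol is Eif followed by a number, with the Eif2ak kinase genes left out, and they include the 3 Eif4ebp repressor genes. A gene was counted as having a peak when at least 1 bp of a peak lay within 1 kb of either annotated end of the gene. The peaks came from CUT&Tag, in which a transposase tethered to an antibody cuts and tags the DNA beside the bound protein or histone mark. All mice were C57BL/6, 12 weeks old and carried Dek fl/fl, a Dek gene flanked by recombination sites. The cKO mice also carried Tie2-Cre, which is active in endothelial cells and in the blood cells that descend from them, so that the deletion is not limited to stem cells, and the fl mice carried no Cre. H3K27ac, an acetylation mark of active promoters and enhancers, and H3K4me3, a mark of promoters, were profiled in about 50000 LSK cells (Lin-Sca-1+c-Kit+, a gate for stem and progenitor cells), with 1 cKO and 1 fl library for each mark. H3K9ac, another acetylation mark of active promoters, was profiled in about 20000 HSC (haematopoietic stem cells, the CD48- and CD150+ part of that gate), with 1 cKO and 1 fl library, and the chromatin protein DEK in 3 libraries of fl HSC.

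Translation initiation factors bring the initiator tRNA, the small ribosomal subunit and the capped mRNA together and release the large subunit to join at the start codon. The GTP-binding factor eIF2 carries the initiator tRNA and is recharged by the exchange factor eIF2B, eIF3 holds the small subunit, and the eIF4 factors recognise and unwind the capped end of the mRNA. The Eif4ebp proteins bind eIF4E and keep it from eIF4G until mTORC1 phosphorylates them. Haematopoietic stem cells are known for a low rate of protein synthesis compared with the progenitors they give rise to.

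The lists held 16331 H3K27ac peaks in cKO LSK cells and 10494 in fl LSK cells, 3431 H3K9ac peaks in cKO HSC and 2172 in fl HSC, and 10159 H3K4me3 peaks in cKO LSK cells and 10514 in fl LSK cells. For DEK in fl HSC there were 2054, 2111 and 6146 peaks in replicates 1, 2 and 3. The deposited lists hold no read counts, so the depth of each library is unknown. With 1 library per genotype and mark there is no replicate check and no test between genotypes. The part that list length plays in a difference between cKO and fl was not tested beyond lists cut to equal length. Among markers of the sorted cells, H3K4me3 peaks were present in both genotypes at 7 of 12 stem and progenitor genes, among them Kit, Cd34 and Mecom, and absent in both genotypes at Ly6a, which encodes Sca-1, and Slamf1, which encodes CD150. H3K4me3 was absent in both genotypes from all 4 B cell, all 4 endothelial and all 4 stromal genes listed, and present in both at 1 of 5 T cell genes (Cd3d). The cKO H3K27ac list nevertheless held peaks at 1 of the 4 B cell genes (Cd79a), 1 of the 4 endothelial genes (Kdr) and 2 of the 4 stromal genes (Cxcl12 and Sp7), and the fl list at none of these. At 5 T cell genes the cKO H3K27ac list held Cd4 and the fl list Lck. Of 6 granulocyte and monocyte genes Cebpe had H3K27ac in cKO only, Mpo had H3K4me3 in fl only, and Itgam had H3K9ac in cKO only, as did the endothelial gene Kdr. Of 7 erythroid genes Klf1 and Epor had H3K4me3 in both and Hbb-bt in cKO only, and Klf1 had H3K27ac in both. Of the 12 stem and progenitor genes, 6 had H3K27ac in cKO only and 1, Flt3, in both. The part of other cells or of background in the H3K27ac difference at the factor genes was not tested.

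Most initiation factor genes carried H3K4me3 in both genotypes. A peak lay at 46 of the 52 genes in cKO LSK cells (88.5%, exact Clopper-Pearson 95% interval 76.6 to 95.6%) and at 47 in fl LSK cells (90.4%, 79.0 to 96.8%). Of all protein-coding genes, 42.7% had such a peak in the cKO list and 43.8% in the fl list. H3K27ac marked 44 factor genes in cKO LSK cells (84.6%, 71.9 to 93.1%) and 30 in fl LSK cells (57.7%, 43.2 to 71.3%), beside 42.5% of all genes in the cKO list and 21.9% in the fl list. H3K9ac was found at 2 factor genes in cKO HSC, Eif3d and Eif4ebp2, and at none in fl HSC, where the background over all genes was 1.06% in cKO HSC and 0.658% in fl HSC. DEK peaks lay at the ends of 0 of 52 factor genes in each of the 3 fl libraries, for which the exact interval reaches 6.85% and a limit of 3 counts in 52 is 5.77%. Over all genes the share with a DEK peak in any library was 1.21%, and in at least 2 libraries it was 0.064%. These intervals cover counting over genes only and say nothing of the spread between libraries.

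**Figure D1:**
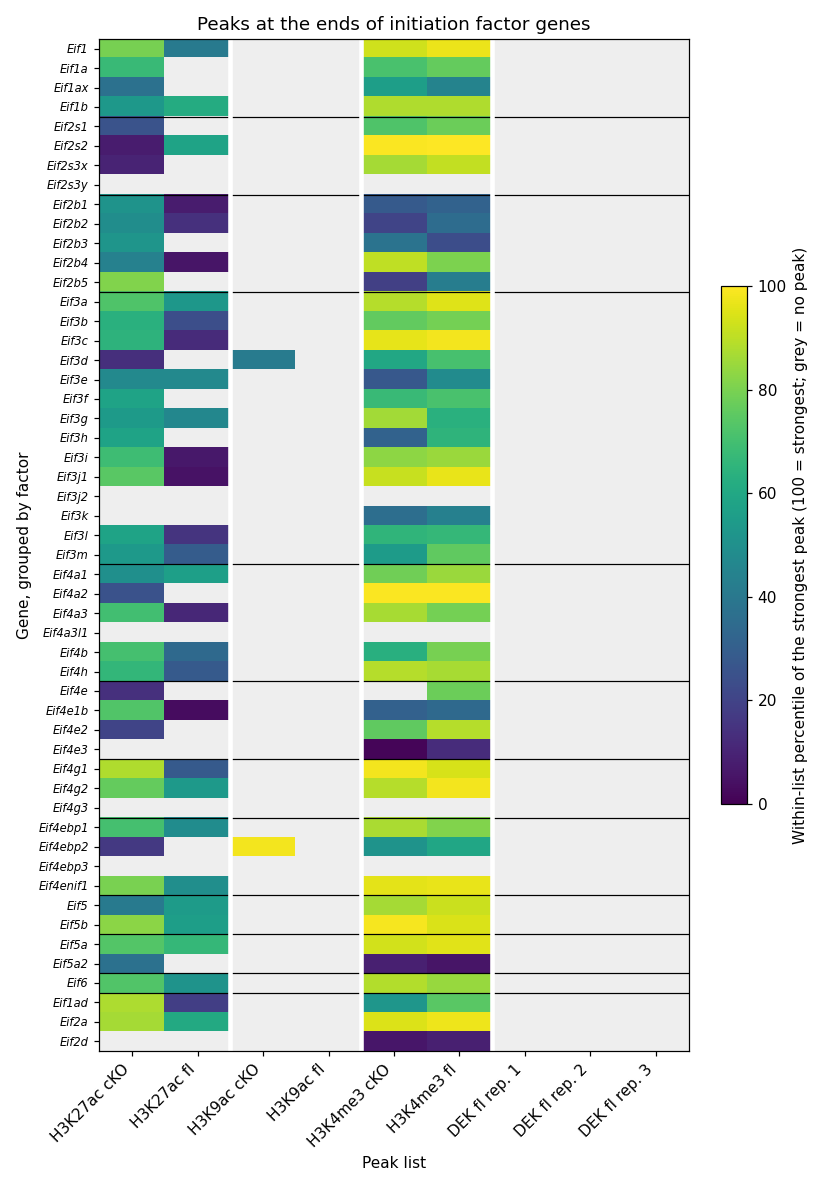
Strongest peak at each of the 52 initiation factor genes in the 9 peak lists, with genes grouped by factor between black lines and cKO left of fl for each mark. Colour gives the percentile of the peak within its own list, where 100 is the strongest peak, and grey means no peak within 1 kb of a gene end: H3K4me3 fills 46 rows in cKO and 47 in fl, H3K27ac 44 rows in cKO and 30 in fl, H3K9ac 2 rows in cKO, and DEK none.

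Set side by side, the H3K27ac lists differed at 14 factor genes, all with a peak in cKO only (26.9%, 15.6 to 41.0%), while 30 had a peak in both lists, 8 in neither and 0 in fl only. Over all genes 20.9% had a peak in cKO only and 0.384% in fl only, so the share of cKO-only factor genes was close to the background, which lies inside the interval. Factor genes were more often marked in both lists than all genes were, 57.7% beside 21.5%. Among genes with H3K4me3 in both lists, H3K27ac was cKO only at 13 of 46 factor genes (28.3%) beside 32.9% of all such genes, and in both lists at 30 of 46 (65.2%) beside 49.1%. When the cKO list was cut to its 10494 strongest peaks, the length of the fl list, the count in cKO only was 7 factor genes (13.5%) beside 11.0% of all genes. Eif1a, Eif1ax, Eif2b3, Eif2b5, Eif3f, Eif3h and Eif5a2 were the 7 that kept a cKO-only peak in these equal lists.

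**Figure D2:**
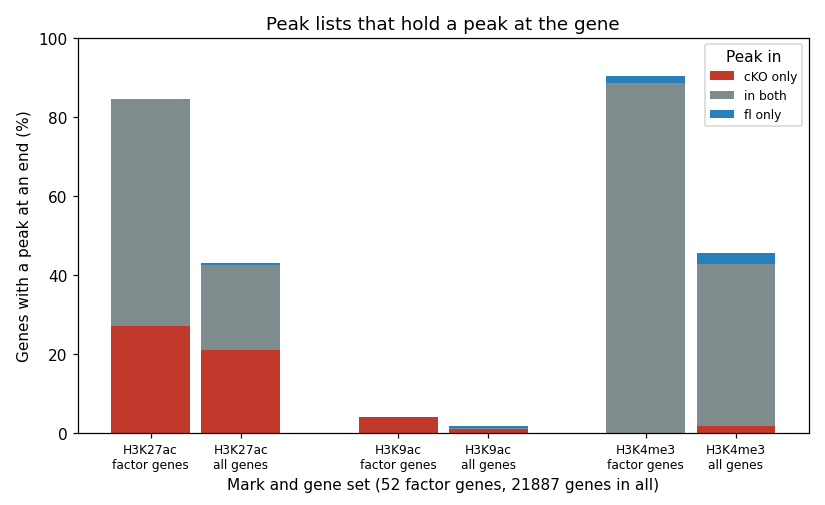
Share of the 52 initiation factor genes and of all 21887 protein-coding genes with a peak at a gene end, in percent, stacked by the lists that hold it (cKO only, both, fl only) for each mark. The cKO-only part of H3K27ac is 26.9% of factor genes and 20.9% of all genes, and the part in both lists is 57.7% and 21.5%.

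For H3K4me3 no factor gene had a peak in cKO only (1.59% of all genes), and 1, Eif4e, had one in fl only (2.75% of all genes). Eif4e encodes the protein that binds the cap of the mRNA. Its fl H3K4me3 peak was 1337 bp wide and reached within 1 kb of the annotated gene end, and the cKO peak at the same place was 938 bp wide and began 1002 bp from that end, just outside the window. Both lists therefore held an H3K4me3 peak at the Eif4e start that lies 247 bp before the cKO summit, and the difference is one of peak edge. The 5 genes without an H3K4me3 peak within 1 kb of an end in either list were Eif2s3y, Eif3j2, Eif4a3l1, Eif4ebp3 and Eif4g3. Of these, Eif4g3 did have H3K4me3 in both lists at a transcription start further inside the gene, as described below. Eif2s3y is the Y-linked copy of the eIF2 gamma gene, and the labels do not give the sex of the mice. Eif3j2 and Eif4a3l1 are second copies of Eif3j1 and Eif4a3. The handling of reads that match more than 1 place is not given in the sources used here, so a missing peak at such copies cannot be read as a missing mark. H3K9ac was cKO only at the 2 genes named above (1.01% of all genes) and fl only at 0 (0.608% of all genes).

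Among the factors that scan for the start codon, eIF1 and eIF1A, all 4 genes had H3K4me3 in both genotypes and H3K27ac in cKO. The H3K27ac peak of Eif1, which guards start codon choice, was 817 bp wide at percentile 79.6 in cKO and 809 bp wide at percentile 40.8 in fl, where the percentile ranks a peak by its significance within its own list. Its paralog Eif1b had percentile 53.2 in cKO and 61.6 in fl. Eif1a and Eif1ax, both coding for eIF1A, had H3K27ac in cKO only, at percentiles 67.7 and 37.4, and the Eif1a peak also lay at an end of Tmed7. H3K4me3 at Eif1ax was 707 bp wide in cKO and 1099 bp in fl, a ratio of 0.643, while its percentile was 56.1 in cKO and 44.6 in fl.

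Of the 4 eIF2 genes, 3 had H3K4me3 in both genotypes, and their H3K27ac peaks in cKO were at most 341 bp wide. Eif2s1, the alpha subunit that stress kinases phosphorylate, and Eif2s3x, the X-linked gamma subunit, had H3K27ac in cKO only, in peaks of 341 and 303 bp at percentiles 25.8 and 10.1, of which both were lost in lists of equal length and the one at Eif2s1 also lay at an end of Atp6v1d. Eif2s2, the beta subunit, had the highest H3K4me3 percentile of the set, 99.5 in cKO and 99.8 in fl. Its H3K27ac peak was 305 bp wide at percentile 7.59 in cKO and 406 bp wide at percentile 58.0 in fl, the lowest cKO percentile of the 44 genes. The difference of -50.4 percentile points was the largest of the 5 factor genes that ranked lower in cKO, the others being Eif5, Eif1b, Eif4a1 and Eif3e. In lists of equal length Eif2s2 lost its cKO peak and was the 1 factor gene with H3K27ac in fl only (1.92%, beside 1.93% of all genes).

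The eIF2B genes, which encode the 5 subunits of the exchange factor, were marked by H3K4me3 in both genotypes. All 5 had H3K27ac in cKO, at percentiles from 44.0 to 80.9, and 3 in fl, at percentiles from 5.60 to 13.9. The peaks at Eif2b1 also lay within 1 kb of an end of Gtf2h3, and those at Eif2b4 within 1 kb of an end of Snx17. Eif2b5, the catalytic epsilon subunit, had the strongest H3K27ac peak of the 14 factor genes marked in cKO only. The peak was 478 bp wide at percentile 80.9 with a fold enrichment of 15.8, a value of the authors' peak caller within that library. A peak at the Eif4g1 start, described below, also had no fl counterpart and ranked higher, at percentile 88.1 in cKO. Eif2b3, the gamma subunit, had a peak of 419 bp at percentile 52.2 in cKO and no peak in fl. H3K4me3 stood at percentiles 18.8 to 38.2 in cKO at 4 of the 5 genes, and at Eif2b5 it was 544 bp wide at percentile 18.8 in cKO and 836 bp wide at percentile 42.5 in fl. At Eif2b1, the alpha subunit, H3K4me3 was 527 bp wide in cKO and 837 bp in fl, the lowest width ratio of the set (0.630). The promoter of Eif2b5 is shown because it holds this cKO-only peak without a change of the same direction in H3K4me3. It is RefSeq sequence of GRCm38.p6, chr16:20498567-20498866 on the plus strand, from 250 bases before to 50 after the annotated start, with the 108 bases under the cKO H3K27ac peak in capitals.
Eif2b5: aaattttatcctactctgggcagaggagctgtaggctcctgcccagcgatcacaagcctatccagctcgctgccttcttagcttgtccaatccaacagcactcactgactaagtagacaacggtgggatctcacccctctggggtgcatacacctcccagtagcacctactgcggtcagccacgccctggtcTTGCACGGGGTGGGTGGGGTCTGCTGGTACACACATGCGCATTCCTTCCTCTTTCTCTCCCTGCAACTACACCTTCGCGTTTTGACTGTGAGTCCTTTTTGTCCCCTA

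The eIF3 scaffold has 14 genes in the set, of which 9 were marked by H3K27ac in cKO and fl, 3 in cKO alone and 2 in neither. The cKO-only genes were Eif3d, whose human counterpart can bind the cap of some mRNAs, and Eif3f and Eif3h, the subunits with an MPN fold, at percentiles 13.4, 58.0 and 57.9. Among the 9 marked in both, Eif3j1 had a peak of 786 bp at percentile 74.2 in cKO and 301 bp at percentile 4.74 in fl. Eif3i had 919 bp at percentile 69.0 in cKO and 350 bp at percentile 6.53 in fl, in peaks that also lay within 1 kb of an end of Tmem234. Eif3c had 568 bp at percentile 64.8 in cKO and 402 bp at percentile 12.1 in fl. Eif3e did not share this pattern, with percentile 47.2 in both cKO and fl. H3K4me3 was present in both genotypes at 13 of the 14, the exception being Eif3j2. Eif3h had the lowest difference in H3K4me3 rank, with percentile 31.5 in cKO and 65.0 in fl, although its H3K27ac peak was cKO only. Eif3g had the largest difference the other way, with percentile 86.0 in cKO and 63.4 in fl. Eif3k, with H3K4me3 at percentile 36.1 in cKO and 43.6 in fl, had no H3K27ac peak in either list.

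Among the RNA helicase eIF4A and its partners eIF4B and eIF4H, H3K27ac lay at 5 of 6 genes in cKO and at 4 in fl. Eif4a2 had H3K27ac in cKO only, 542 bp wide at percentile 25.4, although its H3K4me3 stood at percentile 99.5 in cKO and 99.4 in fl. Eif4a1, which encodes the main helicase of the cap-binding complex, was 1 of 3 factor genes with a narrower H3K27ac peak in cKO, 694 bp there and 954 bp in fl. The fl peak also lay within 1 kb of an end of Senp3. Eif4a3, which also serves in the exon junction complex, had percentile 69.9 in cKO and 11.1 in fl.

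Of the cap-binding eIF4E genes, Eif4e and Eif4e2 had H3K27ac in cKO only, in peaks of 521 and 691 bp at percentiles 13.8 and 20.6. Both cKO-only calls were lost in lists of equal length. Eif4e1b had percentile 73.0 in cKO and 3.19 in fl, the largest difference of the set, but its peaks lay at the high-coordinate end of the gene, within 1 kb of an end of Tspan17, and cannot be assigned to 1 of these genes. Eif4e3 had no H3K27ac peak at its ends, and its H3K4me3 peak there was the weakest of the set in cKO, at percentile 1.20 in cKO and 12.6 in fl. Inside the gene, away from its ends, Eif4e3 carried H3K4me3 peaks of 1189 bp at percentile 68.4 in cKO and 842 bp at percentile 72.3 in fl, together with a cKO H3K27ac peak of 512 bp at percentile 60.1 and none in fl.

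The eIF4G genes encode the scaffold that joins the cap-binding protein to the small subunit. Eif4g1 had the strongest H3K27ac of the set in cKO, at percentile 88.1, and percentile 28.4 in fl, but the peaks stood at opposite ends of the gene. The cKO peak of 994 bp at chr16:20672540-20673533 covered the annotated start. The fl peak of 347 bp lay with its summit 20641 bp into the gene, at the far end next to Fam131a, where the cKO list also held a peak of 438 bp at percentile 60.1. At its start Eif4g1 was thus marked by H3K27ac in cKO only, while H3K4me3 there was 1418 bp wide at percentile 98.3 in cKO and 1399 bp at percentile 94.0 in fl. Eif4g2, a relative that works without the cap-binding protein, had the widest H3K27ac peak of the set, 1251 bp in cKO and 421 bp in fl, a ratio of 2.97. Eif4g3 had no peak within 1 kb of its annotated ends, because its annotated transcription start lies further inside the gene. There, 1580 bp inside the gene, it carried H3K27ac in cKO only, 972 bp wide at percentile 59.7, and H3K4me3 at percentile 57.9 in cKO and 55.3 in fl. The promoter of Eif4g1 is shown because H3K4me3 was strong there in both genotypes and H3K27ac was in the cKO list only. It is RefSeq sequence of GRCm38.p6, chr16:20672477-20672776 on the plus strand, with the 237 bases under the cKO H3K27ac peak in capitals.
Eif4g1: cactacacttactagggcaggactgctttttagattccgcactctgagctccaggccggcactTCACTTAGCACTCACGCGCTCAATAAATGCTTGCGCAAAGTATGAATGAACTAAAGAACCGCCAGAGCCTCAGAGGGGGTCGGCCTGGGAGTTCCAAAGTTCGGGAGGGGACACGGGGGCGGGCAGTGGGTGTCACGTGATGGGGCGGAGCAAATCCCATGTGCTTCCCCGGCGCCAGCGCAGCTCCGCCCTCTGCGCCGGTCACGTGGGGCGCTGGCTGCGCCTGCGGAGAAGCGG

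Exact matches to 6 motifs were searched on both strands of the printed promoters. CACGTG, the E-box that MYC and USF proteins are known to bind, occurred in the Eif4g1 promoter with its first base at -54 and at 15 relative to the annotated start, both inside the cKO peak. It was found in 7.84% of the 21263 promoters of protein-coding genes in the table. The other motifs were CCGGAAGT (5.15% of all promoters), GCATGCGC (3.52%), TGACGTCA (2.23%), GATGGCGG (2.27%) and TATAAA (12.6%), none of which overlaps another, and they had no match in the 4 printed promoters. A match is a description of the letters and not a bound site. Only 40 of the 52 factor genes had a promoter entry (76.9%, under the limit of 80%). Base composition and motif content were computed for these genes and for all genes, but the comparison does not cover the whole set. No result is drawn from it here.

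The 3 Eif4ebp repressor genes each showed a different state. Eif4ebp1 had H3K27ac in both genotypes, 522 bp wide at percentile 70.4 in cKO and 457 bp at percentile 48.8 in fl, and H3K4me3 at percentile 87.5 in cKO and 81.1 in fl. Eif4ebp2 had H3K27ac in cKO only, in a wide but weak peak of 808 bp at percentile 16.5 that was lost in lists of equal length, and H3K4me3 at percentile 51.3 in cKO and 59.3 in fl. Eif4ebp3 had no peak of any mark at its ends in any list. Eif4ebp2 was also 1 of the 2 factor genes with H3K9ac in cKO HSC. That peak was 250 bp wide at percentile 98.1, with a fold enrichment of 22.6 and a −log10 q of 47.0 by the authors' caller, and its summit lay upstream of the start, at -386 bp. The other H3K9ac peak, at Eif3d, was 188 bp wide at percentile 41.4 with a −log10 q of 1.82, and it was lost when a −log10 q of at least 5 was asked for. Eif4enif1, which encodes a protein that carries eIF4E into the nucleus, had H3K27ac at percentile 80.1 in cKO and 49.4 in fl. These peaks also lay within 1 kb of ends of Gm51877 and Sfi1. The H3K9ac peak of Eif4ebp2, the stronger of the 2, overlapped no H3K4me3 peak of the cKO LSK list. The promoter of Eif4ebp2 is shown because the gene had H3K27ac in cKO LSK cells and H3K9ac in cKO HSC, and neither mark in fl. It is RefSeq sequence of GRCm38.p6, chr10:61452620-61452919 on the minus strand, and all 300 bases lie under the cKO H3K27ac peak and are in capitals, while the H3K9ac peak begins further upstream.
Eif4ebp2: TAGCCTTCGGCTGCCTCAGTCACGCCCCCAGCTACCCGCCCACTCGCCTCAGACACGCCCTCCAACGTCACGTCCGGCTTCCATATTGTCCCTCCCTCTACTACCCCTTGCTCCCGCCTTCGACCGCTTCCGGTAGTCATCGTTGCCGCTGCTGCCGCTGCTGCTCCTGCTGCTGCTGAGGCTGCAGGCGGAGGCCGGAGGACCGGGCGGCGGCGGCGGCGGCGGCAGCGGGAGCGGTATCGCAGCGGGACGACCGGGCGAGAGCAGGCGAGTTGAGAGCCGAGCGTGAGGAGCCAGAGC

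Among the factors that act after start codon choice, Eif5, the GTPase activator of eIF2, had H3K27ac 1086 bp wide at percentile 41.3 in cKO and 551 bp wide at percentile 54.9 in fl. It was, with Eif2s2, 1 of the 2 factor genes at least 10 percentile points lower in cKO, though its peak was the wider one there. These peaks lay mostly on opposite sides of the start, with the summit at 754 bp in cKO and at -359 bp in fl. Eif5b, which joins the ribosomal subunits, had percentile 82.7 in cKO and 56.2 in fl, in peaks that also lay within 1 kb of an end of Txndc9. Eif5a, the hypusine-bearing factor that relieves stalled ribosomes, had percentile 73.4 in cKO and 66.8 in fl, and the widest H3K4me3 peaks of the set, 1946 bp in cKO and 1935 bp in fl. Its paralog Eif5a2 had H3K27ac in cKO only, 656 bp wide at percentile 37.4, over weak H3K4me3 at percentile 8.79 in cKO and 5.73 in fl. Eif6, which keeps the large subunit from joining early, had its strongest H3K27ac at percentile 72.9 in cKO and 51.3 in fl. These peaks lay outside the gene, within 1 kb of ends of BC029722 and Mmp24, and cannot be assigned to 1 of these genes. With a window of 500 bp, or without peaks near another gene's end, Eif6 had H3K27ac in cKO only. At its other end Eif6 had a cKO H3K27ac peak of 313 bp at percentile 14.9 and none in fl.

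Eif2a, an initiator tRNA carrier distinct from eIF2, and Eif1ad, a protein with a domain like that of eIF1A, stood among the 3 highest H3K27ac percentiles in cKO. Eif2a had percentile 86.7 in cKO and 60.7 in fl, in peaks that also lay within 1 kb of an end of Serp1. Eif1ad had a peak of 539 bp at percentile 87.7 in cKO and 376 bp at percentile 18.7 in fl, before its start and within 1 kb of an end of Banf1, which is transcribed from the other strand, so the peak cannot be assigned to 1 of these genes. H3K4me3 at Eif1ad differed the other way, with percentile 52.6 in cKO and 74.5 in fl. Eif2d, which also brings tRNA to the ribosome, had H3K4me3 at percentile 5.99 in cKO and 8.75 in fl and no H3K27ac. The promoter of Eif1ad is shown because the cKO peak runs 152 bases into it and the fl peak ends before it. It is RefSeq sequence of GRCm38.p6, chr19:5366563-5366862 on the plus strand, with the bases under the cKO H3K27ac peak in capitals.
Eif1ad: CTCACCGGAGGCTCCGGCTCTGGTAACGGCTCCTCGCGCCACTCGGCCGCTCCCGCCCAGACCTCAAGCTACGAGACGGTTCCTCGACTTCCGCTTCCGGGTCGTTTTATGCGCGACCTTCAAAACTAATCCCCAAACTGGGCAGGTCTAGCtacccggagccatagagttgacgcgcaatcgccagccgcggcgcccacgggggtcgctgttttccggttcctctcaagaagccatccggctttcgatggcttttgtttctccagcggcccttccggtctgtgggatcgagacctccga

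Over the 30 factor genes with H3K27ac in both lists, the strongest peak had a median width of 678 bp in cKO and 404 bp in fl, and the median ratio was 1.46, beside 1.42 over the 4711 genes of the whole table in both lists. The cKO peak was at least 1.5 times wider at 14 of the 30 (46.7%, background 42.3%) and at least 1.5 times narrower at 0 (background 0.276%). Of the fl peaks, 6 were 301 or 302 bp wide, where 301 bp is the smallest width of that list. The largest ratios were at Eif4g2, Eif4g1, Eif3i, Eif3j1 and Eif4e1b, from 2.21 to 2.97, of which the Eif4g1 value compares peaks at different ends. The percentile had a median of 69.4 in cKO and 37.6 in fl, and it was at least 10 points higher in cKO at 23 of the 30 (76.7%, background 82.2%) and at least 10 points lower at 2 (background 3.27%). The counts of wider and higher-ranked peaks were thus near the background of all genes in both lists. With both lists at equal length, 16 of 29 factor genes were at least 10 points higher in cKO (55.2%, beside 57.6% of all genes) and 5 were lower (17.2%, beside 16.3%).

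**Figure D3:**
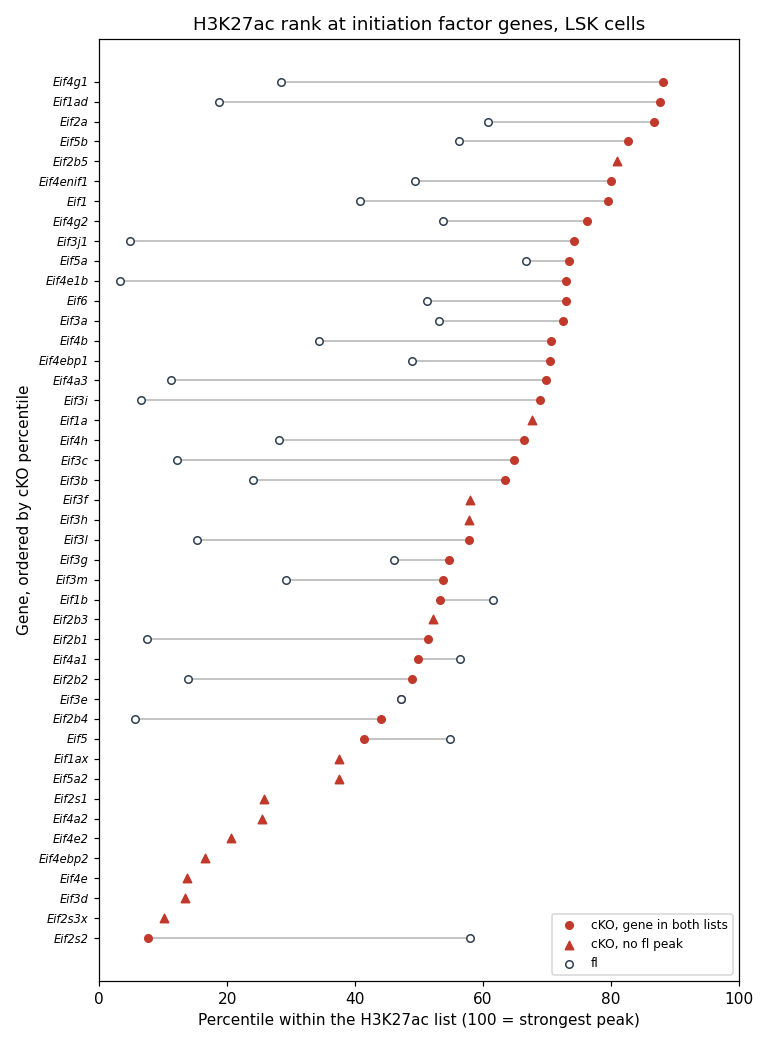
Percentile of the strongest H3K27ac peak within its list for the 44 initiation factor genes with a peak in cKO LSK cells, with cKO as filled red symbols (triangles where fl has no peak) and fl as open circles. Of the 30 genes with both symbols, 23 lie at least 10 points higher in cKO, and Eif2s2, at 7.59 in cKO and 58.0 in fl, lies farthest the other way.

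H3K4me3 at the 46 genes marked in both lists differed little in comparison. The median width was 918.5 bp in cKO and 979.5 bp in fl, and the median ratio was 0.990. No gene was at least 1.5 times wider in cKO (background 2.34%), and 3 were at least 1.5 times narrower: Eif2b1, Eif1ax and Eif2b5 (6.52%, background 6.1%). The percentile was at least 10 points higher in cKO at 4 genes (8.70%, background 15.1%), namely Eif3g, Eif2b3, Eif1ax and Eif2b4. It was at least 10 points lower at 10 (21.7%, background 21%), with Eif3h, Eif2b5, Eif1ad, Eif3m and Eif3e in front. The median difference was -3.13 points, beside -0.90 over all genes in both lists.

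**Figure D4:**
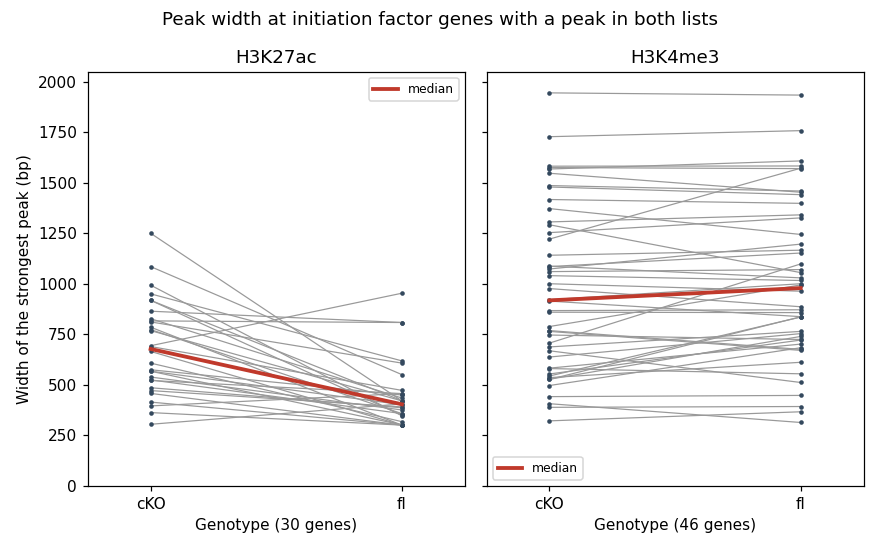
Width in bp of the strongest peak at each initiation factor gene with a peak in both lists, with cKO left and fl right, 1 grey line per gene and the medians joined in red. For H3K27ac (30 genes) the medians are 678 bp in cKO and 404 bp in fl, and for H3K4me3 (46 genes) 918.5 bp in cKO and 979.5 bp in fl.

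H3K4me3 was set beside the H3K27ac class of the gene. The median H3K4me3 percentile in fl was 84.9 for the 30 factor genes acetylated in both genotypes, 71.2 for the 14 with H3K27ac in the cKO list alone and 12.6 for the 3 that had H3K4me3 but no H3K27ac at their ends. Its width did not keep this order, with a median of 925.5 bp for the 30 genes, 1050 bp for the 14 and 393 bp for the 3. Over all genes with a fl H3K4me3 peak the same median percentiles were 68.1, 50.1 and 37.1. The 3 factor genes were Eif2d, Eif3k and Eif4e3, and the 12.6 is that of the Eif4e3 peak, which also lay within 1 kb of an end of Gpr27. Away from its ends Eif4e3 had H3K4me3 at percentile 72.3 in fl and an H3K27ac peak in cKO, so its low value belongs to the window. The cKO-only H3K27ac peaks of factor genes were themselves weaker within the cKO list, with a median percentile of 31.6, beside 69.4 for those in both lists. All genes showed the same split, with medians of 37.3 for cKO only and 68.8 for both lists. Every one of the 44 cKO H3K27ac peaks overlapped an H3K4me3 peak of the same genotype, and 29 of the 30 fl peaks did, the exception being the Eif4g1 peak at the far end. Over all genes with an H3K27ac peak 7437 of 9292 did in cKO and 4510 of 4795 in fl. In both genotypes 11 of these factor gene peaks also lay within 1 kb of an end of another gene, and over all genes 27.5% of such peaks did in cKO and 33.2% in fl.

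Around the annotated starts of the 40 genes with a promoter entry, the H3K27ac summit lay into the gene at 31 of 36 genes in cKO (86.1%, beside 69.7% of all genes) and at 15 of 23 in fl (65.2%, beside 66.9%). Its median position was 161.5 bp after the start in cKO and 91 bp in fl, beside 95 and 83 bp over all genes. H3K4me3 summits lay further in, at a median of 243.5 bp in cKO and 258.5 bp in fl, beside 170 and 172 bp over all genes. The annotated start itself lay under the H3K27ac peak at 30 of 36 genes in cKO and at 15 of 23 in fl. The same share over all genes was not computed, so these counts are not read as a trait of the factor genes. At Eif4a1, Eif2s2 and Eif2b4 the H3K27ac peak lay wholly inside the gene in both genotypes, and at Eif1ad wholly before the start.

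**Figure D5:**
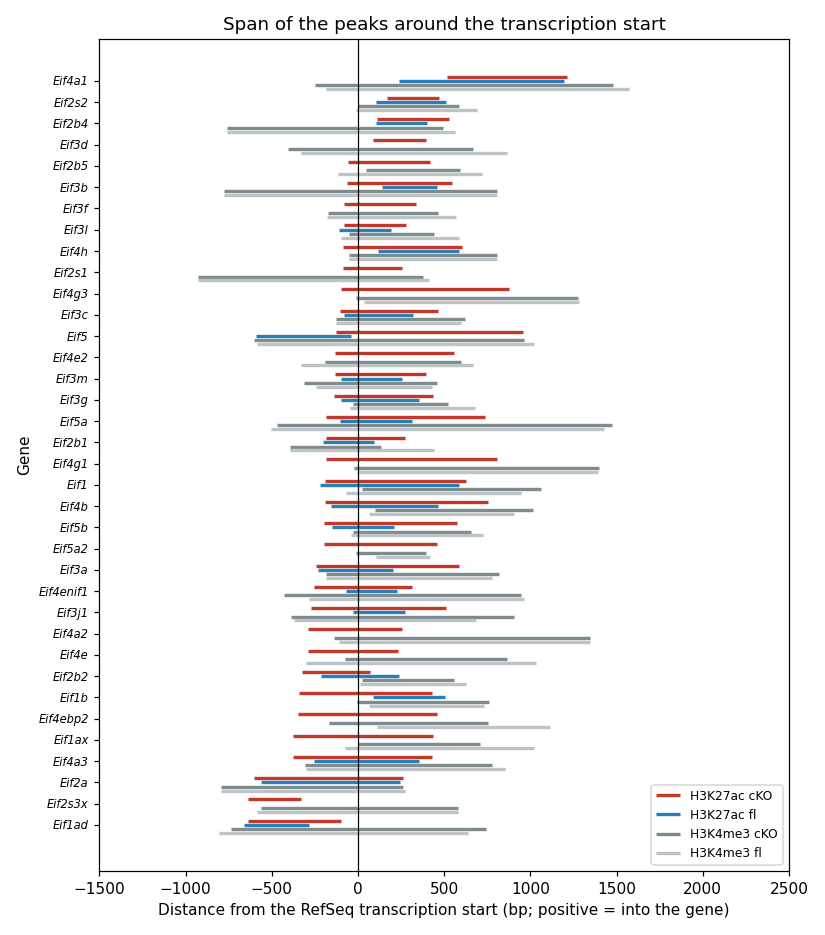
Span of the strongest peak around the transcription start for the 36 initiation factor genes with an H3K27ac peak near an annotated start in cKO, in bp from the start, with H3K27ac in cKO (red) above fl (blue) and H3K4me3 in cKO (dark grey) above fl (light grey). The H3K27ac summits lie at a median of 161.5 bp into the gene in cKO (36 genes) and 91 bp in fl (23 genes). Genes without a blue line have no fl H3K27ac peak at the start.

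Genes that act beside the initiation factors gave similar counts. Of 40 such genes, H3K27ac was cKO only at 7 (17.5%, beside 20.9% of all genes) and in both lists at 24 (60.0%, beside 21.5%). It was in fl only at 0 (0.384% of all genes) and in neither at 9 (57.2% of all genes). H3K4me3 was in both lists at 33 of the 40, beside 41.1% of all genes. Of the 9 elongation factor genes, Eef1b2 was cKO only and 6, among them Eef1a1 and Eef2, were in both. All 3 of the mTORC1 genes Mtor, Rptor and Mlst8 had H3K27ac in both lists, as did Rps6kb1, Rps6kb2 and Mknk2. The other genes of that group, Mknk1, Larp1 and Pdcd4, had no peak of any mark at their ends in either genotype. Peaks further inside these genes were not examined, so they cannot be read as unmarked. Of the poly(A) binding group, Paip1 had H3K27ac and H3K9ac in cKO only and Paip2b had H3K27ac and H3K4me3 in cKO only. Of the eIF2 alpha kinases, Eif2ak3 had H3K27ac in cKO only, and Atf4, the transcription factor translated when eIF2 alpha is phosphorylated, had H3K9ac in fl only. None of the 40 had a DEK peak at its ends, where the share over all genes was 1.21% in any library, too low for a count in 40 genes to differ from it.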

How the data were processed

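CUT&Tag peak lists, 1 per library, were used as deposited. The tools were MACS2, Picard and Bowtie2 on the mm10 genome, per the submitters' processing notes, with no version, control track or threshold given in the sources used here. The authors' score equals 10 times the −log10 p of the row, cut to a whole number, the fold enrichment is the authors' ratio of summit to background, and the −log10 p-value and −log10 q-value are the authors' own; all were used only to rank, filter or describe peaks within a list. From the DEK lists 12 rows with irregular columns were left out, and 16 mitochondrial peaks over all lists. Row names in the DEK list of replicate 3 carry another stem than those of replicates 1 and 2, and the labels were followed.

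Peaks were assigned to RefSeq gene ends of GRCm38.p6, the mm10 assembly, and the strongest peak (highest −log10 p) was taken per gene and list. Its percentile is its rank in that list, 100 being the strongest. The software was matplotlib 3.10.9, scipy 1.17.1, pandas 2.3.3 and numpy 2.4.6 under Python 3.11.15. The assignment was tested on simulated data and recovered 400 of 400 genes. Alternatives were other windows, summits, a −log10 q of at least 5, ranks by fold, lists of equal length and each DEK library left out. Named genes were those of the Eif4ebp family, those whose peak lists differed by genotype, those with H3K9ac or without H3K4me3, the 5 highest and 5 lowest percentiles and the largest changes, with others as examples of their group, some picked after their values were seen. The members and gene lists were chosen with earlier results of these data known. Promoter sequences are from RefSeq.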

Additional observations from a re-analysis of the deposited data

How the results depend on the processing

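Of 141 values recomputed, 123 stayed within 1.5 times the reported count and 18 did not; which setting moved each is given here and the causes were not tested further. In lists of equal length, H3K27ac was cKO only at 7 genes and fl only at 1 (Eif2s2), and 5 genes ranked at least 10 points lower in cKO. With a window of 500 bp or with the summit in the window, H3K27ac was fl only at 1 gene (Eif4a1). H3K4me3 was fl only at 0 genes with windows of 500 bp, 2 kb, the start only, the summit or the whole gene, and at 2 (Eif4e and Eif4e3) with a −log10 q of at least 5. That minimum also left 1 gene with H3K9ac in cKO, and in cKO only. With ranks by fold, 8 genes were at least 10 points higher in H3K4me3. Further alternatives were chosen after seeing the data. With the whole gene, 1 gene had a DEK peak in any library, 1 in at least 2 libraries, and 1 H3K9ac in both genotypes. Shares of all genes with DEK or H3K9ac were computed for gene ends only, so these whole-gene counts have no background beside them. Leaving out peaks near another gene's end left 19 genes with H3K27ac in both lists. Without each DEK library in turn the DEK counts ranged from 0 to 0. No paired analysis was possible because each genotype has 1 library per mark and the DEK replicates are of 1 genotype. The lists carry no depth, so an absent peak means only that none was called.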

Other observations

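Beyond the gene ends, 1 site inside an initiation factor gene carried DEK peaks. In Eif3b, which encodes a scaffold subunit of eIF3, DEK peaks lay in fl HSC at chr5:140438955-140439525 in replicate 2 (fold enrichment 10.9, −log10 q 15.6) and at chr5:140439209-140439486 in replicate 3 (fold enrichment 6.85, −log10 q 6.97), and replicate 1 had none there. They lay 3.83 and 3.87 kb from the nearer end of the gene. The same place held H3K27ac, 661 bp wide at percentile 11.6 in cKO LSK cells and 918 bp wide at percentile 55.4 in fl LSK cells. It also held an H3K9ac peak of 646 bp at percentile 76.8 in cKO HSC and none in fl HSC.

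Eif4b had H3K9ac inside the gene in both genotypes, but at different places: 7958 bp from the low-coordinate end in cKO HSC (332 bp wide, −log10 q 2.08) and 18382 bp from it in fl HSC (175 bp wide, −log10 q 1.64). The nearest DEK peaks to Eif4g3 lay 5.95 kb away in replicate 1 and 5.84 kb away in replicate 3. These sites were picked after their values were seen and were not tested. The share of all genes with DEK or H3K9ac peaks inside them was not computed.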
